A study of Mus musculus with 3 samples.

Results

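Of 13500 open chromatin windows in cells of the growing mouse molar root, 1130 (8.37%, exact 95% interval 7.91 to 8.85) lay deep inside protein-coding genes. A window was counted as deep intragenic when its midpoint lay inside a protein-coding gene of RefSeq GRCm38 and over 10 kb from either end of every protein-coding gene. Of these windows, 1117 lay in 1 gene and 13 in 2 overlapping genes, and together they had 910 host genes. Of the 1089 on chromosomes with listed gene starts, 351 lay within 500 bp of one and averaged 9.28 CpG per 100 steps between bases. The other 738, some in genes without a listed start, averaged 4.06. Long genes held more of them, but fewer than in proportion to length, and the share of windows with a motif site of the transcription factor Plagl1 did not differ from that of other windows beyond the error.

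Open chromatin was mapped by ATAC-seq, in which the Tn5 transposase inserts adapters into accessible DNA. The mutant was Gli1-CreER;Arid1a fl/fl, with 1 library, and the controls were Arid1a fl/fl without Cre, with 2 libraries. All were C57BL/6 mice that received tamoxifen at postnatal day 3.5, at 1.5 mg per 10 g body weight, and were sampled at postnatal day 7.5. Cells were freed by collagenase from the root-tip part of first molars, and 5000 cells went into each library. Gli1-CreER removes Arid1a, the DNA-binding subunit of a SWI/SNF chromatin remodeler, where the hedgehog target gene Gli1 is expressed, so other cells of the digest keep the gene. The labels do not say whether a library pooled several animals.

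The windows of 201 bp form a single list joined over the libraries. No window carries a value for a library. The mutant was therefore not compared with the controls here, depth cannot be given, and errors between replicates could not be had. The tests below describe the list, not animals. Except for the test of gene length, they set windows or sites against each other in models with errors clustered by blocks of 1 Mb. Intervals of shares are exact Clopper-Pearson intervals and cover counting error only. The cells were a mixture, and the list does not say which of them opened a window.

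Open chromatin far inside a gene can be an enhancer, a switch that acts on a promoter at a distance and is often active in few cell types. It can also be an internal promoter, from which a shorter form of the host is transcribed, or the promoter of another gene nested in the host. Promoters of widely expressed genes often lie in CpG islands, stretches where CpG dinucleotides have not been lost, while enhancers mostly lie outside them. Plagl1, also called Zac1, is an imprinted zinc finger factor that can arrest the cell cycle and binds GC-rich DNA. A motif site is a match of the sequence to the motif and does not show that the factor was bound.

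The 10 sites with the highest motif scores in deep intragenic windows are shown because they are the closest matches to the Plagl1 motif far inside genes. Each is written 5′ to 3′ on its own strand, with motif positions 4 to 7, counted from the 5′ end, in capitals, and each line is named by the host gene.
Ahrr: aatGGGGccc
Afap1: catGAGGccc
Smad3: catGAGGccc
Trappc9: aatGAGGccc
Ap1b1: taaGAGGccc
Anxa6: caaGGGGccc
Sipa1l3: caaGGGGccc
Tsc22d1: tagGGGGccc
Tns3: aaaGAGGccc
Nrbp1: aaaGAGGccc
All 10 end in the same 3 bases and differ only at positions 1, 3 and 5. Their HOMER log-odds scores ran from 7.59 in Ahrr, a repressor of the aryl hydrocarbon receptor, to 7.27 in Tns3, a tensin of focal adhesions, and Nrbp1. The Ahrr site lies at chr13:74260073-74260082 on the plus strand of mm10. The Smad3 site lies at chr9:63668853-63668862 on the plus strand, in the gene of a transducer of TGF-beta signals, and the Afap1 site, in the gene of an actin-binding protein, has the same sequence at chr5:35921921-35921930 on the minus strand. Both scored 7.54. On the plus strand, too, lie the sites of Trappc9 (chr15:72810135-72810144), Sipa1l3 (chr7:29481424-29481433), Tsc22d1 (chr14:76467099-76467108), Tns3 (chr11:8468623-8468632) and Nrbp1 (chr5:31241016-31241025). Those of Ap1b1 (chr11:4986901-4986910) and Anxa6 (chr11:55023192-55023201) lie on the minus strand.

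Windows at internal starts are shown next as the stretch of RefSeq sequence (GRCm38.p6) that lies in the window and in the 250 bp before the listed start, on the strand of the gene, with Plagl1 sites in capitals. The first 3 are internal starts with a site, whose windows had 12.5, 7 and 9 CpG per 100 steps, against a mean of 9.28 in deep intragenic windows at a listed start. Runx1 is an internal start without a site, at 11.5. Kcnq1ot1 is a noncoding gene that starts inside Kcnq1, and Disp1 is an internal start poor in CpG.
Foxp1: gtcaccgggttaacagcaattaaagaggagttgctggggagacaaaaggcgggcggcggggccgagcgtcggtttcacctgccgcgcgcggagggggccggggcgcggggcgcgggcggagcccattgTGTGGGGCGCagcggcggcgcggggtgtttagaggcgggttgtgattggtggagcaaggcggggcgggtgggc
Palld: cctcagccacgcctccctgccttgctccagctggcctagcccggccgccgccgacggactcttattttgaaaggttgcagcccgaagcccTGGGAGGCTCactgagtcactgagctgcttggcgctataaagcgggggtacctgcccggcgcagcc
Rbpj: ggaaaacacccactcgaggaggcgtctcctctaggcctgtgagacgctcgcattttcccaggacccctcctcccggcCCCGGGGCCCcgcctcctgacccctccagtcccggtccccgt
Runx1: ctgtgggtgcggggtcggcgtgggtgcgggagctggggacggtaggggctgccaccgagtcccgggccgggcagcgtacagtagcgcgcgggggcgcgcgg
Kcnq1ot1: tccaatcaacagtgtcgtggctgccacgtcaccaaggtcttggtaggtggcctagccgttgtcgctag
Disp1: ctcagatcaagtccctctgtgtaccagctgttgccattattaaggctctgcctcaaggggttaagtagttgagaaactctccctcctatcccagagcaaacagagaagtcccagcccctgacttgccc
The Foxp1 stretch is the whole window, chr6:99028306-99028506 on the minus strand, and holds 25 CpG dinucleotides in 201 bases. The Palld stretch is chr8:61591140-61591295 on the minus strand with 11 CpG in 156 bases, and the Rbpj stretch is chr5:53590227-53590345 on the plus strand with 9 in 119. The Runx1 stretch, chr16:92697479-92697579 on the minus strand, holds 15 in 101 bases. The Kcnq1ot1 stretch, chr7:143296548-143296615 on the minus strand, holds 4 in 68, and its window has a site outside the stretch. The Disp1 stretch, chr1:183147558-183147685 on the minus strand, holds 0 CpG in 128 bases.

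Deep intragenic windows were less GC-rich than the rest of the list and more varied. Their GC content averaged 59.4% ± 12.2 (SD, n = 1130 windows), against 65.9% in the other 12370 windows, a difference of -6.57 percentage points (95% interval -7.39 to -5.76, adjusted p = 4.37e-55, two-sided Wald test of a linear model, Benjamini-Hochberg over 28 comparisons). The median was 58.2%, the middle 50% of windows ran from 50.2 to 69.2%, and the extremes were 27.4 and 86.6%. They had less GC than windows in genes 1 to 10 kb from an end (59.4 against 66.1%, difference -6.70 points, adjusted p = 2.09e-45, Wald test) and than windows within 1 kb of a gene end (67.8%, difference -8.48 points). They had more than windows outside genes and over 10 kb from them (59.4 against 55.2%, difference 4.20 points, 3.01 to 5.40, adjusted p = 1.62e-11, Wald test).

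CpG content followed the same order. Deep intragenic windows had 5.75 ± 5.03 CpG per 100 steps between neighbouring bases (SD, n = 1130, median 4), against 9.04 in all other windows (median 9), a difference of -3.29 (-3.62 to -2.96, adjusted p = 1.01e-84, Wald test). The difference was -4.25 against windows within 1 kb of a gene end and 1.67 against windows outside genes over 10 kb. Part of it remained at equal GC content: -0.659 against all other windows (-0.824 to -0.494, adjusted p = 1.60e-14, Wald test) and 0.262 against windows far outside genes (0.0364 to 0.487, adjusted p = 0.0456, Wald test). With GC of at least 50% and an observed to expected CpG ratio of at least 0.6, 447 deep intragenic windows (39.6%, 36.7 to 42.5) were island-like. That share was 85.8% within 1 kb of a gene end, 69.5% in genes 1 to 10 kb from an end and 27.0% far outside genes. Closest to it in composition were the 618 windows outside genes and 1 to 10 kb from them, of which 39.0% were island-like. Their median GC (58.2%) and median CpG (4) equalled those of deep intragenic windows, and their means were 58.3% and 5.08. That difference was not tested. At the other extreme, 49 deep intragenic windows (4.34%) had no CpG at all.

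**Figure D1:**
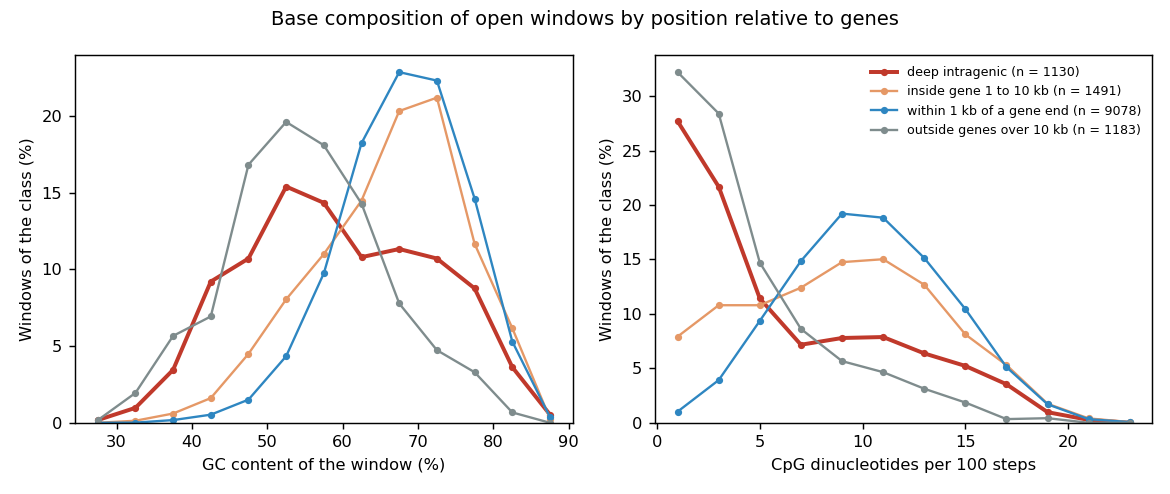
Distribution of GC content (left, % of bases) and CpG content (right, CpG per 100 steps) in 4 classes of windows, as the share of each class in bins of equal width. The deep intragenic line is broad, with its highest GC bin at 50 to 55%, as for windows far outside genes, and with a larger share than these above 65% GC.

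The windows at the ends of these distributions show the range. The highest GC content was 86.6% in Nol4l, 82 bp from a listed start of that gene, and in Zbtb46, in a window with a site scoring 6.04. The listed start nearest to the Zbtb46 window, 33714 bp away, was that of another gene, Abhd16b. A window of Plekhg5 had 86.1%, 38 bp from a listed start. The lowest GC content was 27.4% in Gm7827. The highest CpG content was 21 per 100 steps in Adipor2, an adiponectin receptor gene, 63 bp from a listed start, and in Sbk1. The listed start nearest to the Sbk1 window, 24228 bp away, was that of another gene, 1700123J17Rik. Shroom3, a regulator of apical actin, followed with 20, 58 bp from a listed start. GC and CpG content were lower with distance from protein-coding gene ends: the 355 windows 10 to 20 kb from the nearest such end had medians of 61.2% GC and 5.5 CpG, the 211 at 50 to 100 kb had 56.2% and 3, and the 101 at 100 to 200 kb had 52.2% and 2. The 39 windows over 200 kb away had 53.2% and 3.

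Just inside the 10 kb limit were windows of Dchs1 at 10012 bp from the nearest end (58.2% GC, 4 sites), Dcun1d4 at 10013 bp (67.2%, 1 site) and Cep250 at 10046 bp (54.7%, no site). Just outside were windows of Rarg at 9994 bp (55.7%), Gm38510 at 9990 bp (56.7%) and Fpgs at 9989 bp (64.2%), none with a site.

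Whether deep intragenic windows lay at starts of shorter transcripts or of other genes was asked with the starts that the RefSeq table of promoters lists. It lists none on chromosome 18, so 41 windows there were left out of these counts and 1089 were used. Other chromosomes are not fully covered either. Of the 910 hosts, 736 had a strand, which came from listed starts, while 36 hosts lie on chromosome 18. Windows counted as away from a listed start can therefore lie at starts that are not listed. Of the 1089 windows, 351 (32.2%, 29.5 to 35.1) had their midpoint within 500 bp of a listed start, although such bases make up 0.415% of the deep intragenic territory. The start belonged to a gene the window lay in for 327 windows and only to another gene for 24. The shares in the other classes were 55.0% in genes 1 to 10 kb from an end, 80.1% within 1 kb of a gene end, 10.9% outside genes 1 to 10 kb from an end, and 12.6% far outside genes. Seen from the starts, 373 of the 1490 listed starts of protein-coding genes in deep territory had a window within 500 bp, 25.0% of them. In comparison, 4695 of 11096 outermost starts of protein-coding genes had one (42.3%), as did 59 of 1760 starts of other genes in deep territory (3.35%).

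Deep intragenic windows at and away from a listed start differed widely in sequence. Those at a start averaged 67.8% ± 9.47 GC (SD, n = 351) and those away from one 55.5% ± 11.3 (SD, n = 738), a difference of 12.3 points (11.0 to 13.6, adjusted p = 5.47e-74, Wald test, Benjamini-Hochberg over 21 added comparisons). CpG per 100 steps averaged 9.28 at a start and 4.06 away from one, a difference of 5.22 (4.65 to 5.79, adjusted p = 1.72e-71, Wald test), of which 0.929 remained at equal GC (0.570 to 1.29, adjusted p = 2.05e-06, Wald test). Island-like composition was found in 262 of those at a start (74.6%) and in 151 of the 711 windows near neither a listed start nor an end of a noncoding gene (21.2%).

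Both were then set against like windows outside deep territory. Windows at internal starts were within error of windows at listed starts near gene ends in GC (67.8 against 67.8%, difference -0.0512 points, -1.04 to 0.934, adjusted p = 0.919, Wald test), but had slightly fewer CpG (9.28 against 10.1, difference -0.769, -1.25 to -0.290, adjusted p = 0.00692, Wald test). The 711 windows away from starts and noncoding gene ends had 55.4% GC, against 53.9% in the 912 such windows far outside genes (difference 1.44 points, 0.0696 to 2.81, adjusted p = 0.104, Wald test). Their CpG content was 3.95, against 3.55 (difference 0.399, -0.0343 to 0.833, adjusted p = 0.166, Wald test). These intervals bound the differences and do not show that the classes are alike.

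**Figure D2:**
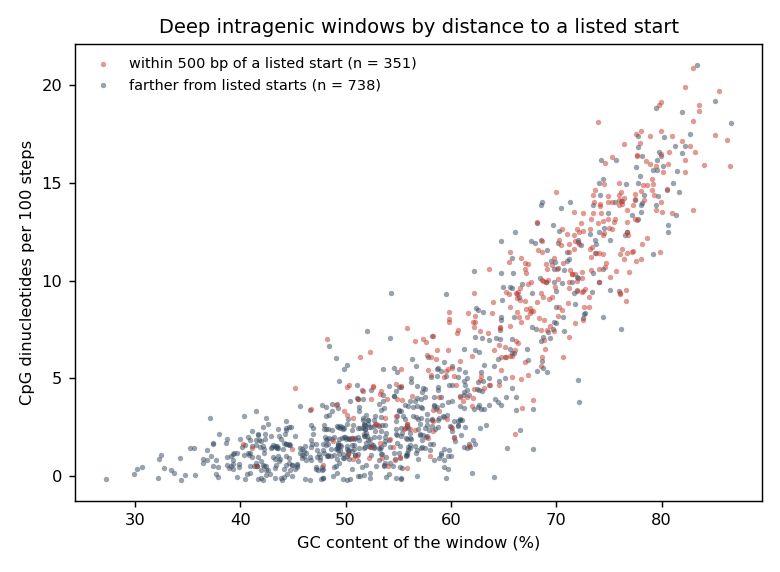
GC content (x axis, %) and CpG content (y axis, CpG per 100 steps) of the 1089 deep intragenic windows outside chromosome 18, each point a window, moved by up to 0.2 at random to separate equal values. Windows within 500 bp of a listed start (red, n = 351) gather at high GC and CpG, and windows farther away (dark, n = 738) mostly at few CpG, with some as rich as those at starts.

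The internal starts belonged to genes of several roles. Among transcription factors, windows lay 250 bp from an internal start of Runx1 (74.6% GC, 11.5 CpG per 100 steps), 97 bp from one of Runx3 (82.6%, 17) and 108 bp from one of Foxp1 (71.6%, 12.5). Runx factors direct blood and skeletal cell fates, and Foxp1 is a forkhead repressor. A window lay 251 bp from an internal start of Zfhx3, a large zinc finger homeobox factor (65.7%, 11), with a site scoring 5.99. In Rbpj, the DNA-binding factor of Notch signalling, one window lay 19 bp from an internal start, with a site scoring 5.52, and another 955 bp from it. Windows also lay 147 bp from a start of the histone deacetylase gene Hdac7 (83.1%, 13.5), with 2 sites, and 100 bp from a start of Stag1, a cohesin subunit (74.1%, 14). The actin-binding protein gene Palld had a window 56 bp from an internal start (66.2%, 7) and 3 others at 2896 bp or more from any listed start.

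Not every internal start was CpG-rich. Disp1, which releases hedgehog ligands from the cells that make them, had a window 28 bp from an internal start with 55.2% GC and 1 CpG per 100 steps. Abcg2, an efflux transporter known from stem cells, had 4 windows: one 219 bp from a start with 45.3% GC and 4.5 CpG, one 56 bp from a start with 73.1% and 11.5, and 2 away from starts with 43.8 and 48.8% GC and at most 0.5 CpG. The window of Nrxn3, a presynaptic adhesion gene, lay 208 bp from an internal start and 522660 bp from the nearest gene end.

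Some windows lay near ends of noncoding genes, and whether these genes lie wholly inside the host was not checked. Within 500 bp of such an end lay 83 windows. Outside chromosome 18 they were 78 of 1089 (7.16%). That share was 9.13% in genes 1 to 10 kb from an end, 10.9% within 1 kb of a gene end, 22.4% outside genes 1 to 10 kb from an end and 18.2% far outside genes. By the nearest such end, the noncoding gene was a lncRNA for 70 of the 83 windows, a small nuclear RNA gene for 8, a pseudogene for 3 and a miRNA gene for 2. Both classical imprinted antisense lncRNAs among them start deep in their hosts: the Igf2r window lay 154 bp from the start of Airn (58.7% GC, 6 CpG), and a Kcnq1 window lay 32 bp from that of Kcnq1ot1 (58.7%, 6.5, with a site scoring 6.37). At such promoters one parental allele is methylated, as background. The Dnm2 window lay 321 bp from Mir199a-1, a miRNA gene inside this dynamin gene (51.2%, 3.5). One of 4 Nfia windows, in the gene of a nuclear factor I transcription factor, lay 39 bp from the start of the lncRNA gene Gm19417 (62.2%, 9.5), with a site scoring 6.05.

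Tex14, a gene of germ cell bridges, held the most deep intragenic windows, 9, and each of the 9 lay in or within 368 bp of a small nuclear RNA gene. One window had its midpoint inside Rnu1a1 and another inside Gm22068, genes of the table's small nuclear RNA class. The other 7 lay 98 to 368 bp from the genes Rnu3b1 to Rnu3b4 of U3 RNA, which guides ribosomal RNA processing. They fell into 2 sets. The 3 windows on the side of lower coordinates, 327 to 368 bp from Rnu3b1, Rnu3b3 and Rnu3b2, had 64.7, 66.2 and 59.7% GC and 12, 12.5 and 9.5 CpG per 100 steps. The 4 on the side of higher coordinates, 98 to 143 bp from Rnu3b1, Rnu3b3, Rnu3b4 and Rnu3b2, had 37.8, 35.3, 33.3 and 32.3% GC and 0.5, 1.5, 0.5 and 1 CpG. The U3 genes are near-identical copies, so reads could be split or shared among them, and the windows are uncertain for that reason; the effect was not tested.

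**Figure D3:**
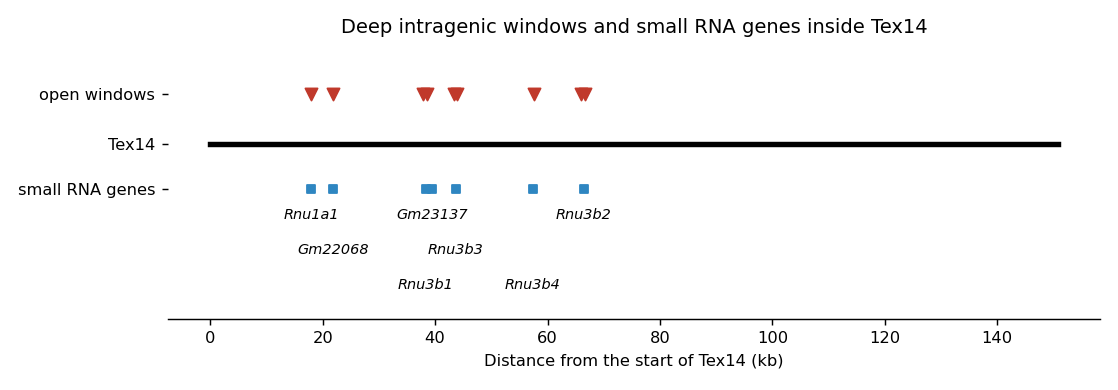
Positions of the 9 deep intragenic windows (red triangles) and of 7 small RNA genes (blue squares) along Tex14 (black line), in kb from the start of the gene. Each window lies beside or in a small RNA gene, with pairs of windows on both sides of Rnu3b1, Rnu3b3 and Rnu3b2, all within the first 70 kb or so of the gene.

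Windows per gene were set against deep length, the bases of a gene that lie over 10 kb from every protein-coding gene end. Of 9886 protein-coding genes with any deep length, 910 (9.20%) had a deep intragenic window. Of the hosts, 738 had 1, 137 had 2 and 35 had 3 or more. Hosts had a median deep length of 87.8 kb, against 25.3 kb in the genes without a window. The number of windows rose with deep length with a slope of 0.661 on log scales (95% interval 0.608 to 0.715), below the slope of 1 that windows in proportion to length would give (p = 1.17e-35, two-sided Wald test, negative binomial model over 9886 genes). Errors of this model were not clustered: neighbouring genes were taken as independent, and a window in 2 overlapping genes was counted in each. The share of genes with a window was 2.69% at up to 20 kb of deep length and 26.9% above 500 kb. Over the same bins, density was 3.28, 2.41, 2.36, 1.82, 1.15 and 0.498 windows per Mb. With whole gene length in place of deep length the slope was 0.898 (p against 1 = 0.00617, same test).

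**Figure D4:**
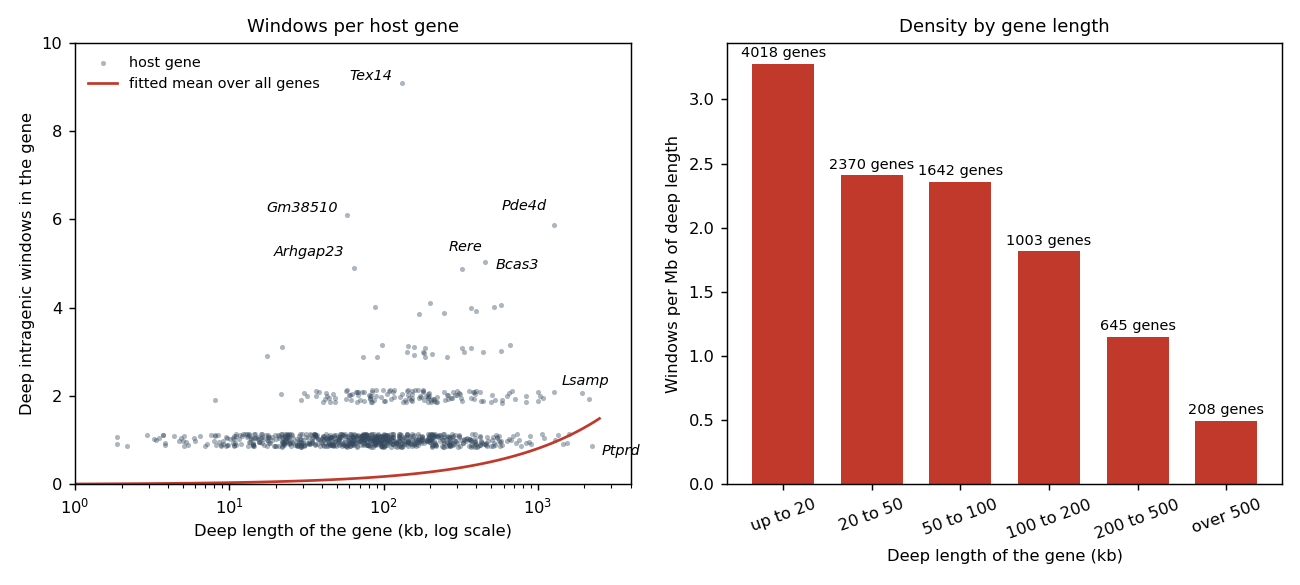
Left, deep intragenic windows per host gene (y axis) against its deep length (x axis, kb, log scale), each point a host gene moved slightly up or down to separate equal counts, with the fitted mean over all 9886 genes in red. Right, windows per Mb of deep length in bins of genes by deep length (kb), with the number of genes above each bar; density is 3.28 in the shortest bin and 0.498 in the longest.

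The density of windows was also lower with distance from the gene's own start, which was not tested. Bases far from a start come from long genes only, where density was lower, so distance and gene length were not separated. Strand was known, from listed starts, for 7832 of the 9886 genes and 736 of the 910 hosts, and the others were left out here. In genes with a known strand, density was 3.04 windows per Mb at 10 to 20 kb from the start, 2.26 at 20 to 50 kb, 1.69 at 50 to 100 kb, 1.17 at 100 to 200 kb and 0.770 beyond 200 kb. Measured from the other end of the gene it was 2.02, 2.15, 2.02, 1.74 and 0.666 over the same distances. With each gene split at the middle of its whole length, the side toward the start held 512 windows (55.1%) and the side toward the other end 418. A window in 2 genes of known strand was counted in each. Over the whole territory of 736 Mb, density was 1.53 per Mb, with the highest values on chromosome 11 (2.49) and chromosome 4 (2.17) and the lowest on X (0.541) among chromosomes with a window. The 0.716 Mb of deep territory on Y held none.

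Tex14 was followed by Gm38510 and Pde4d with 6 windows, Arhgap23, Rere and Bcas3 with 5, and 8 genes with 4: Abcg2, Gm7592, Filip1l, Cmss1, Frmd4a, Maml3, Nfia and Palld. For its deep length the fit gives Tex14 a mean of 0.211 windows and Gm38510 0.123. It gives 0.955 for Pde4d, a cAMP phosphodiesterase gene with 1282 kb of deep length. The 5 windows of Arhgap23 lay in 64.2 kb, or 7.79 per 100 kb, with 58.2 to 81.6% GC. None was at a listed start, but the nearest listed starts, 50285 to 72016 bp away, belonged to other genes. Whether any lay at an unlisted start of Arhgap23 itself is not known. Filip1l and Cmss1 overlap and share their windows. The densest hosts with 3 or more windows were Sp140, with 17.1 per 100 kb, and Zfp600, a zinc finger gene, with 13.7. Gm38510, Gm7592 and Sp140 lie near each other on chromosome 1 and had 13 windows in all, of which 12 had at most 1 CpG per 100 steps, as had 206 (18.2%) of all deep intragenic windows. How alike these genes are in sequence was not examined, and the effect of any reads shared among them on their windows was not tested.

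The longest genes had few. Dmd, the dystrophin gene, had no window in 2297 kb of deep length, nor had Cntnap2 in 2221 kb, Lrp1b in 2038 kb, Dlg2 in 1953 kb or Fhit in 1592 kb. The fit gives 1.41 for Dmd and 1.10 for Fhit. Ptprd, a receptor phosphatase of synapses, had 1 in 2250 kb, at 69.2% GC. Lsamp, a neuronal adhesion gene, had 2 in 2137 kb, one of them the deep intragenic window farthest from any protein-coding gene end, at 983979 bp.

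Host genes were then described by function, in lists chosen with earlier results of these data known. Counts stand beside 9.20% over all genes with deep length and the sum of the fitted shares for the list's own deep lengths, and no list was tested. Of 20 SWI/SNF subunits 7 were hosts (fitted 1.89). They included Arid1a itself with 2 windows, at 56.7 and 54.7% GC and with no site, its homologue Arid1b with 1, and the ATPase gene Smarca2 with 2. Of 40 other chromatin regulators 11 were hosts (27.5%, fitted 5.95), among them Rere, Chd9 and Hdac7. Rere, a nuclear receptor corepressor gene noted earlier for its windows and so not independent, had 5 windows with 51.2 to 79.6% GC, each with a site and 7 sites in all, none at a listed start.

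Among signalling pathways the counts were uneven. Of 19 Notch and Hippo genes 7 were hosts (36.8%, fitted 2.37): the Mastermind coactivators Maml2 and Maml3, Notch2, Rbpj, and Vgll4, Amotl1 and Tead1 of the Hippo pathway. Each of the 7 had a site in at least 1 window, as had 341 of all 910 hosts (37.5%). Hosts with a site were 1 of 7 among SWI/SNF subunits, 6 of 11 among other chromatin regulators and 2 of 7 among BMP and TGF-beta genes. They were 2 of 4 among Wnt genes, 1 of 3 among FGF, PDGF and IGF genes and 0 of 2 among hedgehog genes. Of 27 BMP and TGF-beta genes 7 were hosts (25.9%, fitted 2.93). Smad3 led with 3 windows and 5 sites, at 53.2 to 64.7% GC and at most 3.5 CpG per 100 steps, and none of the list's 11 windows was at a listed start. Of 33 Wnt genes 4 were hosts (12.1%, fitted 3.59), and of 21 FGF, PDGF and IGF genes 3 (14.3%, fitted 2.62). Igf1r, the IGF1 receptor gene, had one of the 5 windows with 4 sites. Of 21 hedgehog genes 2 were hosts (9.52%, fitted 2.49): Disp1, described above, and Smo, the signal transducer, with a window of 54.2% GC, no CpG and no site. Gli1, which drives the Cre, has no deep length.

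Among genes of the tooth and of growth control the counts were uneven too. Of 31 dental mesenchyme and root progenitor genes 7 were hosts (22.6%, fitted 4.80), led by Foxp1 and Zfhx3 with 3 windows. Of 16 odontoblast and bone genes 4 were hosts (fitted 2.13), namely Nfia, Nfib, Runx1 and Runx3. Of 16 imprinted genes with deep length 6 were hosts (37.5%, fitted 1.73). They included Gnas, with a window 240 bp from a listed start at 79.1% GC, and Grb10, at 71.1% GC. Plagl1 itself had none in 20.9 kb of deep length. Of 10 cell cycle drivers only Ccnd3, a D-type cyclin gene, was a host (fitted 1.14), and none of 9 cell cycle inhibitors was (fitted 0.741). Of 40 collagen and matrix genes 3 were hosts (fitted 5.73), Col23a1, Col2a1 and Hspg2, each with a site, as had 37.5% of all hosts. A site was found in 3 of the 7 dental mesenchyme and root progenitor hosts, 1 of the 4 odontoblast and bone hosts and 2 of the 6 imprinted hosts. Of 10 insulator and cohesin genes 1 was, Stag1 (fitted 1.17).

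Lists of other cell types that the digest could hold were short. None of 5 dental epithelium genes (fitted 0.591) and none of 5 pericyte and smooth muscle genes (fitted 0.434) was a host. Of 11 endothelial genes 1 was (Vwf, fitted 1.53), of 9 skeletal muscle genes 1 (Mef2c, 3 windows, fitted 1.03), and of 8 immune genes 2 (Ptprc and Runx3, fitted 0.652). Of 17 glial and neuronal genes, whose median deep length was 1040 kb, 3 were hosts (17.6%, fitted 6.26), with 0.216 windows per Mb.

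The share of windows with a Plagl1 motif site was close to that of the rest of the list. At least 1 site was found in 374 deep intragenic windows (33.1%, 30.4 to 35.9), against 32.9% of all other windows, an odds ratio of 1.01 (0.884 to 1.15, adjusted p = 0.965, two-sided Wald test of a logistic model). At equal GC and CpG content the odds ratio was 1.03 (0.901 to 1.19, adjusted p = 0.814, Wald test). Against windows far outside genes it was 1.07 (0.890 to 1.28, adjusted p = 0.682, Wald test) and against windows in genes 1 to 10 kb from an end 0.949 (0.802 to 1.12, adjusted p = 0.717, Wald test). Within deep territory, windows at and away from a listed start had a site in 35.9 and 32.4%, an odds ratio of 1.17 (0.897 to 1.52, adjusted p = 0.399, Wald test). Of the 910 hosts, 341 (37.5%) had a site.

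The share with a site varied with GC content. It was 18.3% (11.4 to 27.1) of the 104 deep intragenic windows with 40 to 45% GC, against 17.9% of other windows with the same GC content. It was 36.4% (29.0 to 44.3) at 55 to 60% GC, against 28.6% (26.2 to 31.0) of other windows. At 60 to 65% it was 41.8% (32.9 to 51.1), against 33.0% of other windows, and at 75 to 80% it was 34.3% (25.1 to 44.6), against 36.5% (34.1 to 39.0). The intervals of deep intragenic and other windows overlap in each of these bins, and no bin was tested by itself.

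**Figure D5:**
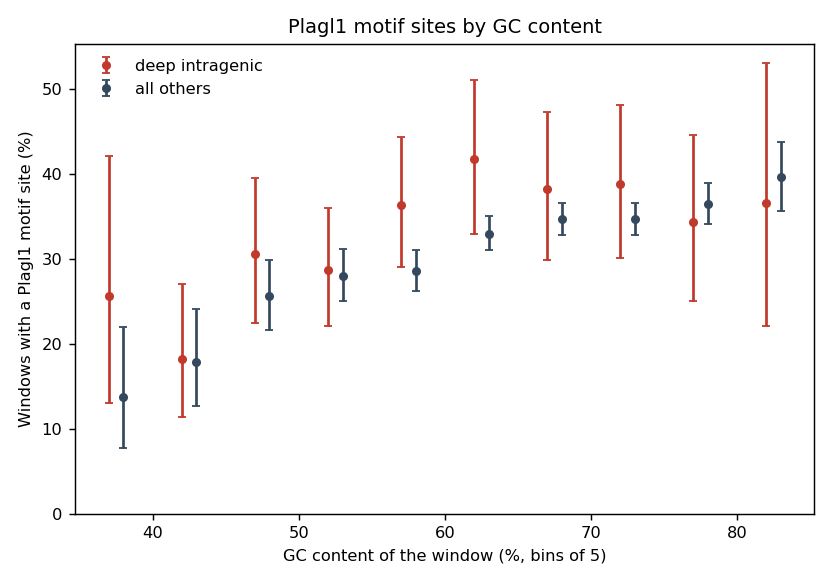
Share of windows with a Plagl1 motif site (y axis, %) by GC content (x axis, %, bins of 5 points) in deep intragenic windows (red) and all other windows (dark), with exact 95% intervals. The deep intragenic share goes from 18.3% at 40 to 45% GC to 41.8% at 60 to 65%, and its intervals overlap those of the other windows in every bin drawn.

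The 506 sites were spread over windows as 266 with 1 site, 89 with 2, 14 with 3 and 5 with 4. The windows with 4 sites lie in Sdk2, Igf1r, Arap1, Dchs1 and Cobl, have 55.2 to 63.2% GC and at most 5 CpG per 100 steps, and none is at a listed start. Sites lay on the plus strand in 259 cases and on the minus strand in 247, and took 316 sequences. Base 6 was G in all 506 sites and base 4 in 504, and base 8 was C in 441 (87.2%). The sequence seen most often was ggaGGGGccc, at 9 sites (1.78%), against 27 of the 5247 sites in other windows (0.515%). The sequence cccGGGGccc was found at 7 sites (1.38%), against 110 (2.10%).

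Scores and the base at position 5 differed little from the rest of the list. The best score of a window averaged 6.13 ± 0.443 (SD, n = 374 windows with a site), against 6.08 in other windows, a difference of 0.05 (0.00355 to 0.0964, adjusted p = 0.0610, Wald test). Against windows in genes 1 to 10 kb from an end it was 0.0782 (0.0198 to 0.137, adjusted p = 0.0188, Wald test) and against windows within 1 kb of a gene end 0.0539 (0.00669 to 0.101, adjusted p = 0.0471, Wald test), both small beside the SD; with only sites of score 6 or more the first was 0.0192 (unadjusted p = 0.604, Wald test). Position 5 was A in 229 sites (45.3%) and G in 277, against A in 44.7% of sites in other windows (odds ratio 1.02, 0.842 to 1.24, adjusted p = 0.934, Wald test).

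One difference in position 5 stood against windows far outside genes, where A was found in 57.6% of 507 sites, an odds ratio of 0.609 for deep intragenic sites (0.454 to 0.816, adjusted p = 0.00210, Wald test). A single block of 1 Mb on X held 24 of those 507 sites, and A was found in all 24. Without that block the odds ratio was 0.663 (unadjusted p = 0.00121, Wald test). Among windows away from starts and noncoding gene ends, A was found in 49.7% of 318 deep intragenic sites and 61.4% of 373 sites far outside genes (odds ratio 0.621, 0.433 to 0.891, adjusted p = 0.0338, Wald test). Between deep intragenic windows at and away from a listed start, A was found in 38.0 and 49.2% of sites (odds ratio 0.631, 0.424 to 0.937, adjusted p = 0.0673, Wald test).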

How the data were processed

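Per the submitters' processing notes, which give no order, the tools were MACS2 2.1.1 and Bowtie2 2.3.5 on mm10, with bedtools, edgeR, Picard, cutadapt 1.18 and FastQC 0.11.8. Per the file headers, HOMER's annotatePeaks was run on a union of peaks, in a window around each centre, with 1 motif. No source used here says how the union was filtered. The deposited GC value is a fraction of the bases of a window and the CpG value a count over its 200 steps, and both were multiplied to a percent scale. The deposited motif score is HOMER's log-odds score, whose log base the file does not state. Depth per library is unknown.

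Genes, their ends and listed starts came from RefSeq tables of GRCm38.p6, which mark no exons, so exonic and intronic windows were not separated. As a check, 67 of 67 sites in promoter sequences matched them. Linear and logistic models (statsmodels 0.14.6) were fitted over all windows or sites, with errors clustered by 1 Mb, and a negative binomial model over genes, all tested on simulated data. The members, the lists and the tests at starts were chosen with earlier results of these data known. Named genes are the 10 hosts with most windows, the 5 densest with at least 3, and up to 4 per list. The 5 genes of longest deep length, with or without a window, the 5 longest without one, Plagl1, Arid1a and Gli1 are named too. Windows are named by top score (10), sites (5), distance (5), GC, CpG and limit (3 each). Others, including the remaining hosts of the lists and the genes at noncoding gene ends, were named after their values were seen. Alternatives were another limit, other gene ends, 1 window per gene, X and Y left out, a score minimum and another distance to starts. Some genes and 1 gene list are not reported here.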

Additional observations from a re-analysis of the deposited data

How the results depend on the processing

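Of 88 values under alternatives, 83 were counted as unchanged, and 23 of the 88 were chosen after seeing the data. A tested value was unchanged if it stayed on its side of the threshold, with its direction kept where either value passed. The number of windows had to stay within 1.5 times the main number, and the share at a listed start within its 95% interval. Changes of direction in values that did not pass were not counted. One was the odds ratio for a site against all other windows, 1.01, which was 0.95 with a limit of 20 kb. GC and CpG content, lower in deep intragenic windows than in all others, were higher against windows outside genes over 10 kb, by 4.20 points and 1.67. The difference in best score against all others, 0.05, was 0.0544 with X and Y left out (adjusted p = 0.0455, Wald test with 367 deep intragenic windows). Here p was adjusted over the outcomes within a setting, and on that basis the main value had adjusted p = 0.0697 (Wald test). Against windows in genes 1 to 10 kb from an end the difference in best score was 0.0192 with scores of at least 6. The share at a listed start was 27.9% within 250 bp. For these the cause was not tested. The number of windows ran from 775 with a limit of 20 kb to 1526 with 5 kb, and was 827 with ends of all genes. The alternative by peak score was not run, since the deposited score is 0 in every window. No paired analysis was possible because the list is joined over libraries and holds no value for any of them. Unknown depth means that a gene without a window may hold open chromatin that was not called.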
